A study of Drosophila melanogaster with 2 samples.

Results

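Cytosolic ribosomal protein genes were followed through single-nuclei RNA-sequencing of adult *Drosophila* tissue dissected as nephrocytes. The members are all genes whose FlyBase symbol starts with RpL or RpS followed by a digit or P. The reference table of symbols holds 92 such genes, of which 91 were listed among the 15423 genes of the count tables, 87 in the larger matrix and 91 in the smaller. *RpL7-like* was listed in neither, and *RpL37-2*, *RpL10Aa*, *RpS19b* and *RpS28a* were listed in the smaller matrix only. The flies of both samples were w1118 and carried Dot-Gal4 with UAS-GFP.nls, in which the *Dot-Gal4* driver puts a nuclear GFP into nephrocytes so that they can be seen at dissection. There was 1 sample labelled female and 1 labelled male, both of adults aged 5 to 7 d and both pooled from many flies, dissected 10 at a time and 50 per tube. The labels give 18 °C and version 2 of the library protocol, whereas the methods of the study give a higher temperature and a later version of a 3′ kit. The columns of the count tables name no sample, so one is named the larger matrix and the other the smaller by their numbers of nuclei, and no sex was assigned to either.

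A ribosome is built from rRNA and a large set of proteins, which are made in step with each other. RpS proteins belong to the small subunit, which reads the mRNA, and RpL proteins to the large subunit, which joins the amino acids. Their genes are among the most highly transcribed in any cell, and losing a copy of many of them gives the *Minute* phenotype of slow growth and thin bristles in flies. Several subunits have a pair of genes in *Drosophila*, and some second copies, among them *RpL22-like*, *RpL37-2*, *RpS10a* and *RpS19b*, are known for expression in germline tissue.

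The unit is the unique molecular identifier (UMI), a tag that counts each captured transcript once near its 3′ end, so a level was not divided by gene length and is given per 1000000 UMIs (CPM). The larger matrix held 7890 nuclei with a median of 1315 UMIs and the smaller 5978 with a median of 1481, and 14 barcodes occurred in both. Every nucleus had at least 1 ribosomal protein UMI, with a median of 52 in the larger matrix and 49 in the smaller. Clustering without the ribosomal protein genes gave 40 clusters of 13867 nuclei, of which 8352 nuclei received no class name from marker lists. Only 107 nuclei were nephrocyte-like, with 8 of 9 listed markers raised: the slit diaphragm gene *sns* stood at 4323 and 2952 CPM in the larger and smaller matrix, against 38.4 and 36.8 in all other nuclei. With 1 sample behind each matrix, all intervals below are exact 95% intervals and cover counting error only. The p-values rest on the spread left between the 2 matrices after the shift common to all groups is removed. All groups share 1 estimate of that spread. Fewer nuclei of a type and less RNA per nucleus cannot be told apart in summed counts.

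Ribosomal protein genes took 4.83% of all UMIs in the larger matrix and 3.70% in the smaller. The most abundant was *RpL27A* of the large subunit, with 33935 UMIs (911 CPM), followed by *RpS18* with 31534 (847 CPM), *RpS23* with 30843 (828 CPM), *RpL17* with 30548 (820 CPM) and *RpS7* with 28605 (768 CPM). Both subunits were thus present at the top of the order. A core of 78 genes ended with *RpL30* at 5255 UMIs (141 CPM) and *RpL34a* at 4188 (112 CPM).

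Below the core lay mostly genes with a more abundant relative. *RpL22*, the common copy of its own pair, had 2849 UMIs (76.5 CPM), *RpS14b* 2780 (74.7 CPM), *RpL24-like* 2535 (68.1 CPM), *RpLP0-like* 869 (23.3 CPM) and *RpS15Ab* 661 (17.8 CPM). *RpL24-like* and *RpLP0-like* are related to subunit proteins but are known from yeast as factors of ribosome assembly, so they are members by symbol rather than by place in the ribosome. *RpS5b* followed with 210 UMIs (5.64 CPM). The 5 lowest were *RpL10Aa* with 45 UMIs and *RpS10a*, *RpL22-like*, *RpS28-like* and *RpS28a* with 55, 36, 34 and 9, and *RpL37-2* and *RpS19b* stood just above them with 95 and 64. In the larger matrix there were 6 UMIs of *RpS28-like*, 2 of *RpS10a* and 1 of *RpL22-like*, and a gene with none there can have reached at most 0.157 CPM by the limit that a count of 0 allows, 3 UMIs, a one-sided bound.

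The 81 genes with at least 1000 UMIs all had a higher CPM in the larger matrix. The ratio of the matrices ran from 1.03 for *RpS14b* and 1.06 for *RpL22* to 1.58 for *RpL3*, and *RpLP0-like*, with fewer UMIs, had 1.85. After every nucleus was thinned to 500 UMIs, a median of 15 different ribosomal protein genes was seen per nucleus, and the unthinned median was 36. One nucleus in 10 had 7 or fewer after thinning, and 1 in 10 had 35 or more. Detection of any 1 gene in a nucleus therefore depended on depth, so levels were compared in sums.

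Among the classes the share of ribosomal protein UMIs spanned a ratio of 1.96 between the highest and the lowest class present in both matrices. It was lowest in heart-like nuclei at 1.98%, followed by enterocyte-like at 2.95%, fat body-like at 3.17%, oenocyte-like at 3.22% and nephrocyte-like nuclei at 3.50%. Muscle-like nuclei had 3.65%, neuron-like 3.71%, Malpighian tubule principal-like 3.80% and hemocyte-like nuclei 3.87%. Spermatocyte-like nuclei at 4.02% and male accessory gland-like nuclei at 4.94% were found in the smaller matrix only. The accessory gland-like class joined 2 unlike clusters, cluster 6 at 7.24% and cluster 26 at 2.99%. Most neighbours in this order lay within the difference between the matrices: nephrocyte-like nuclei had 3.77% (3.62 to 3.92) in the larger matrix and 3.42% (3.34 to 3.50) in the smaller. The heart was the lowest class in each matrix, at 2.09% in the larger and 1.91% in the smaller. In the smaller matrix fat body-like nuclei lay close to it at 1.99%.

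The 40 clusters varied far more, by a ratio of 6.09 from highest to lowest around a median of 3.79%. Cluster 4, led by *NPF* and *CG43134*, had 12.04% (12.01% in the larger matrix and 12.4% in the smaller, 612 and 59 nuclei). Cluster 13, led by *CG9747* and *Jhbp13*, had 10.8% (11.7% and 8.31%, 321 and 140 nuclei). With the UMIs of both matrices summed, both lay above all other clusters, and neither had a class name. In the smaller matrix cluster 15 lay above cluster 13, with 9.18%, and the median nucleus of clusters 6, 31 and 15 (9.02%, 7.19% and 6.98%) lay above that of cluster 13 (6.76%). Next came cluster 15, led by *CG13285* and *CG2663*, at 8.36%, cluster 31 at 7.92%, the accessory gland-like cluster 6 at 7.24% and cluster 16 at 6.10%. The low end was formed by the heart cluster 19 at 1.98%, the fat body-like cluster 2 at 2.01%, cluster 9, led by *CG18268*, at 2.44%, cluster 25, led by *CG16772*, at 2.73%, and cluster 30, led by *CG3014*, at 2.77%.

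**Figure D1:**
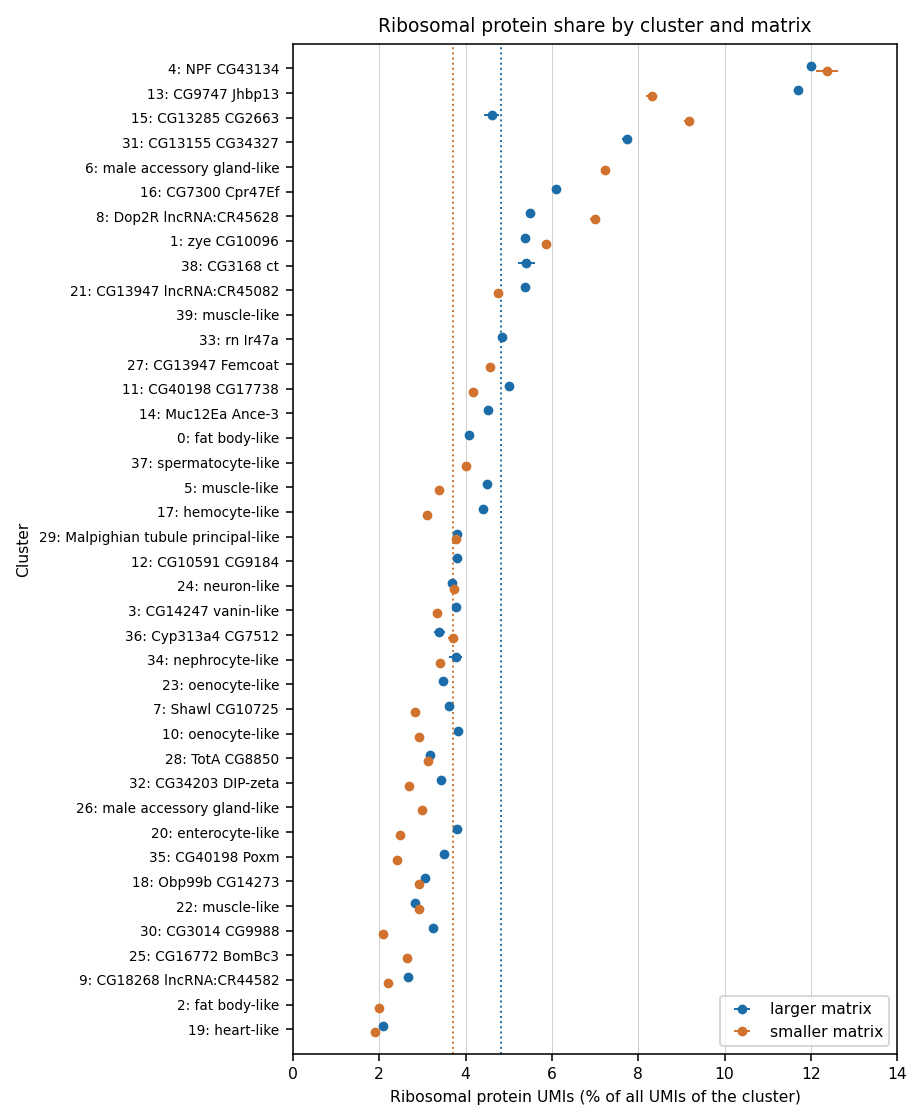
Share of all UMIs that came from ribosomal protein genes (x axis, %) in the 40 clusters (y axis, by number), for the larger and the smaller matrix. A point is left out where a cluster had fewer than 30 nuclei in that matrix. Cluster 4 stood at 12.01% and 12.4% and the heart cluster 19 at 2.09% and 1.91%, and cluster 15 was far apart between the matrices at 4.61% and 9.18%.

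In cluster 4 the high level was spread over the nuclei rather than held by a few. The share of its single nuclei was 5.22% at the tenth percentile, 9.49% at the median and 18.0% at the ninetieth. In cluster 13 these values were 3.55%, 6.76% and 17.3%, and in the heart cluster 0.596%, 1.62% and 3.61%. The tenth percentile of cluster 4 thus lay above the ninetieth of the heart, and that of cluster 13 just below it. In clusters 4 and 13 the median nucleus lay below the summed share, 12.04% and 10.8%. Summed over the shallower and the deeper nuclei, the share was 8.47% and 13.6% in cluster 4 and 6.48% and 12.4% in cluster 13. Thinned to 500 UMIs, a nucleus of cluster 4 showed a median of 34 different ribosomal protein genes, against 7 in heart-like nuclei.

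Transcripts encoded in the mitochondrial genome should be absent from a clean nucleus and moved with the ribosomal protein share. Across the 40 clusters Spearman's rho between both shares was 0.74, and 0.64 without clusters 4, 6, 13 and 15. The clusters share libraries and matrices, so this describes them and is no test. The mitochondrial share was 0.677% in cluster 4, 0.384% in cluster 13, 0.883% in cluster 15 and 1.01% in cluster 6, against 0.173% in the heart cluster and 0.203% in cluster 9. In the 1295 nuclei without any mitochondrial UMI, which were shallow with a median of 888 UMIs, the ribosomal protein share was 2.83%. It was 5.87% in the 28 such nuclei of cluster 4 and 5.66% in the 37 of cluster 13, and 1.47% in those of the heart. As nuclei without a mitochondrial UMI were shallow, depth and cytoplasmic RNA cannot be told apart in this comparison. Over the 28 clusters with at least 10 such nuclei, rho between the share in these nuclei and in all nuclei was 0.74. Depth did not order the clusters in the same way, with a rho of -0.20 between the share and the median UMIs, and 23 of 40 clusters had the higher share in their deeper nuclei. The part of cytoplasmic RNA in the level of a cluster was not tested.

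**Figure D2:**
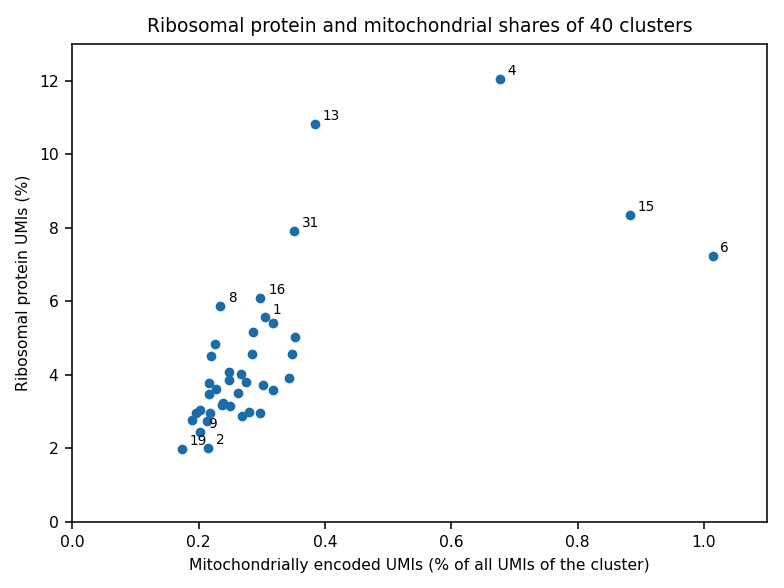
Share of mitochondrially encoded UMIs (x axis, %) and of ribosomal protein UMIs (y axis, %), 1 point for each of 40 clusters, with the extreme clusters numbered. Clusters 4, 13, 15 and 6 lie apart from the rest at 0.384% to 1.01% mitochondrial UMIs and 7.24% to 12.04% ribosomal protein UMIs.

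Each member was then tested, first between classes. edgeR's quasi-likelihood test on UMIs summed per class and matrix compared each of 9 classes with the mean of the other groups, with the matrix as a block and p-values adjusted over all 6342 genes tested. Of the 91 members, 83 passed the filter on low counts, and *RpL10Aa*, *RpL22-like*, *RpL37-2*, *RpS10a*, *RpS19b*, *RpS28-like*, *RpS28a* and *RpS5b* did not. Over the 9 classes 3 of 747 tests of a member gave a higher and 10 a lower level. The lower count depended on the scaling and the reference, with 90 under library totals alone and 98 against the sum of all other nuclei. Shares of all genes called are not given for these alternatives or for DESeq2, so their counts are no result about the members. No member was called in the enterocyte-, hemocyte-, muscle-, neuron-, oenocyte- or Malpighian tubule principal-like class, where 0 to 2 of 83 had an unadjusted p below 0.05, although many other genes were called. Of all genes, 7.51% were higher and 3.31% lower in enterocyte-like, 3.64% and 0.867% in hemocyte-like, and 7.41% and 0.678% in muscle-like nuclei. The shares were 7.49% and 0.631% in neuron-like, 5.55% and 1.72% in oenocyte-like, and 4.9% and 1.5% in Malpighian tubule principal-like nuclei. DESeq2 called 1 member lower in enterocyte-like nuclei and none in the other 5 of these classes, and gave 3 higher and 22 lower calls over all 9.

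Fat body-like nuclei had 2 members higher and 4 lower, where 22.1% and 21.3% of all genes were called. *RpL23A*, a large subunit protein at the exit of the peptide tunnel, had 208 CPM in fat body-like and 468 in all other nuclei of the larger matrix, and 126 against 348 in the smaller. The fat body values lay below the others in both matrices, and *RpL23A* fell by 0.76 ± 0.17 (SE) on the log2 scale (adjusted p = 0.00083, edgeR). *RpL6* followed with 541 against 919 CPM in the larger matrix and 217 against 638 in the smaller, a fall by 0.59 ± 0.19. *RpS29* had 305 against 577 and 172 against 477, a fall by 0.56 ± 0.16.

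*RpL3*, which lies next to the peptidyl transferase center, and *RpLP0-like* were the members called higher in fat body-like nuclei, by 0.47 ± 0.18 and 1.07 ± 0.30 on the log2 scale (adjusted p = 0.044 and 0.0069, edgeR). Their levels did not point the same way in both matrices. *RpL3* had 1221 CPM against 878 in all other nuclei of the larger matrix but 439 against 581 in the smaller, and *RpLP0-like* 54.5 against 28.2 and 12.3 against 16.5. Different clusters held the class: 993 of its 1007 nuclei in the larger matrix were in cluster 0, led by *asRNA:CR45601* and *Yp1*, and 743 of 744 in the smaller were in cluster 2, led by *Cyp12d1-d*. Without the fat body class, the other classes gave 1 higher and 25 lower calls.

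Heart-like nuclei had 0 members higher and 6 lower, where 15.1% and 4.42% of all genes were called. At an unadjusted p below 0.05 edgeR gave 0 higher and 27 lower, and DESeq2 called 0 and 16. The median of the 83 members was -0.34 on the log2 scale, beside 0.00 over all genes. *RpL9* had 232 CPM in the heart and 604 in all other nuclei of the larger matrix, and 235 against 527 in the smaller (a fall by 0.64 ± 0.18 on the log2 scale, adjusted p = 0.015, edgeR). *RpL4* fell by 0.62 ± 0.20 and *RpS21* by 0.55 ± 0.17. The heart values lay below those of all other nuclei in both matrices for all 3 genes. Scaled to library totals alone, which shifted the median of all genes to -0.49 in this class, 79 members were called lower. The share of all genes called lower under that scaling is not given here, so the 79 are not a result about the members.

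Nephrocyte-like nuclei had 1 member higher and 0 lower, where 4.48% and 2.63% of all genes were called. At an unadjusted p below 0.05, 2 were lower with edgeR, and DESeq2 also called 0 lower. It was again *RpL9*, whose product lies at the base of the stalk of the large subunit. It had 68 UMIs in 41 nuclei of the larger matrix, or 1069 CPM (interval 830 to 1355), beside 589 CPM elsewhere in that matrix, and 145 UMIs in 66 nuclei of the smaller, or 718 CPM (606 to 845), against 508. The difference was 0.81 ± 0.18 on the log2 scale (adjusted p = 0.0066, edgeR). In each matrix 1 nucleus held many of these UMIs, 15 of 68 and 17 of 145. With these nuclei removed *RpL9* stood at 841 CPM (630 to 1100) and at 638 CPM (533 to 759), and the difference was 0.57 ± 0.18 with an adjusted p of 0.074, so that the call rested on them. In the larger matrix every other class lay between 232 CPM in the heart and 562 CPM in hemocyte-like nuclei, and in the smaller the accessory gland-like nuclei reached 744 CPM.

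**Figure D3:**
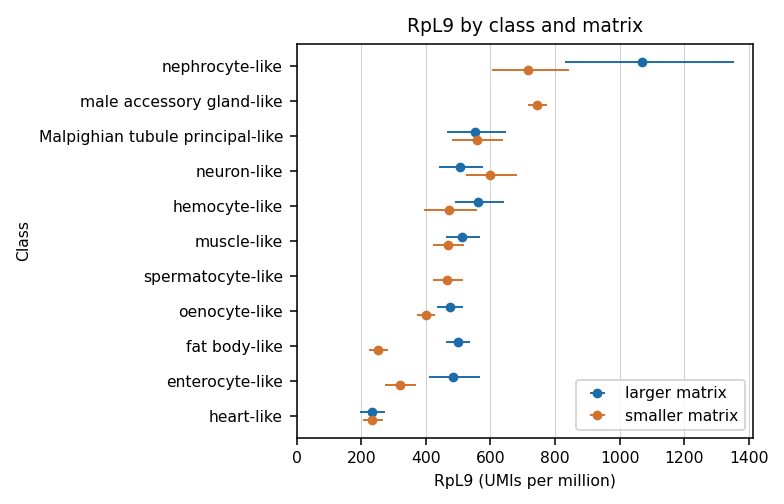
*RpL9* level (x axis, CPM) with the exact 95% Poisson interval of counting error in each class (y axis), for the larger and the smaller matrix. Nephrocyte-like nuclei stood at 1069 and 718 CPM and heart-like nuclei at 232 and 235 CPM, and the interval of the nephrocyte-like nuclei is wide because it rests on 68 and 145 UMIs.

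Because the nuclei richest in ribosomal protein UMIs had no class, the same model was fitted to the 25 clusters with at least 30 nuclei in each matrix, with 5812 genes and 84 members tested. The shares of the clusters were known before this fit, so its calls restate them gene by gene and give no separate support. Nearly all members moved together. In cluster 4, 81 of 84 members (96.4%) were higher, where 21% of all genes were, with a median of 1.78 on the log2 scale. In cluster 13, 82 of 84 were higher (background 19.8%, median 1.50) and in cluster 15, 77 (11.3%, median 0.80). Cluster 8, led by *Dop2R*, had 72 higher (16.5%, median 0.72) and cluster 1, led by *zye* and *CG10096*, 71 (18.6%, median 0.67). In none of these 5 clusters was a member called lower, where 16.1%, 17.6%, 10.3%, 15.8% and 14.7% of all genes were, in the same order, and 0 were lower at an unadjusted p below 0.05 (edgeR).

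Fewer members passed in the low clusters, which were compared with a mean that included the clusters rich in ribosomal protein UMIs. Of 84 members, 44 were lower in the heart cluster 19, where 5.11% of all genes were (median -0.57), 41 in cluster 9 (12.6%, median -0.56) and 30 in cluster 30 (8.22%, median -0.56). Cluster 35, led by *CG40198* and *Poxm*, had 16 lower (5.25%), cluster 32 had 9 (3.46%), and cluster 22, a muscle-like cluster led by *dcma* and *bin*, had 6 (1.48%). Library totals alone gave 80 lower members in cluster 19 and 67 in cluster 9, where that scaling put the median of all genes at -0.36 and -0.25. No share of all genes called stands beside these counts, which show only how far the calls depended on scaling. No member was called lower in the nephrocyte-like cluster 34 (background 1.08%, 10 at an unadjusted p below 0.05). There *RpL9* alone was called higher (0.62 ± 0.19, adjusted p = 0.043, edgeR, background 5.68%). Cluster 34 holds the same 107 nuclei as the nephrocyte-like class, and its *RpL9* call was not repeated without the top nuclei.

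**Figure D4:**
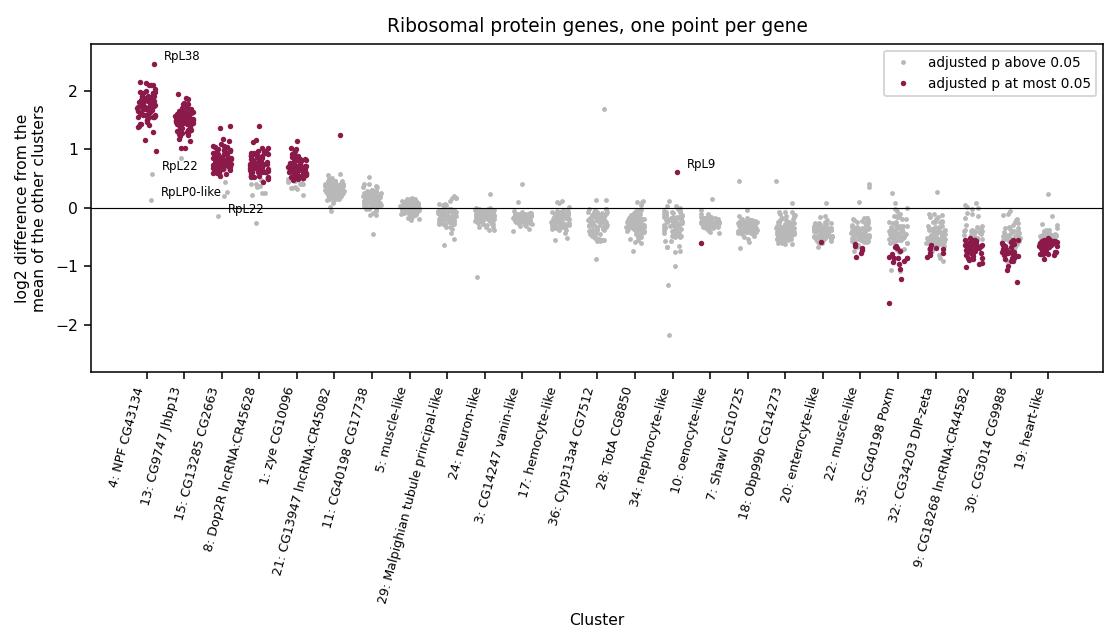
Log2 difference of each tested ribosomal protein gene (1 point each, *RpS5b* left out) in every cluster of the fit against the mean of the other clusters, from edgeR. The points of cluster 4 lie around a median of 1.78 and those of cluster 13 around 1.50, and those of the heart cluster 19 around -0.57.

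The proteins of both subunits moved by about the same amount. The median log2 difference of large and small subunit members was 1.71 and 1.79 in cluster 4, 1.46 and 1.53 in cluster 13, and -0.57 and -0.58 in the heart cluster. Across all 40 clusters the levels of 81 members correlated in pairs, with a median Pearson r of 0.94 and a range of 0.58 to 0.99 over 3240 pairs. The clusters share libraries and depth, and r is given as a description. *RpL22* was the least coupled, with a median r of 0.71, followed by *RpL24-like* with 0.82, *RpL3* with 0.83, *RpL34a* with 0.85 and *RpS14b* with 0.88.

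Single members led these groups. *RpL38*, a small protein of the large subunit known in mice for a role in translating Hox mRNAs, had 971 CPM in cluster 4 of the larger matrix against 253 in all other nuclei, and 1158 against 199 in the smaller (2.46 ± 0.18 on the log2 scale, adjusted p = 2.4e-13, edgeR). The acidic stalk gene *RpLP1* had 2720 against 817 CPM and 2790 against 621 (2.15 ± 0.18), and *RpL23A* 1409 against 406 and 1408 against 331 (2.14 ± 0.17). Cluster 4 lay above all other nuclei in both matrices for these 3 genes. The members that were not called there were *RpLP0-like* at 0.13 ± 0.46 on the log2 scale, *RpL22* at 0.57 ± 0.25 and *RpS5b* at 1.09 ± 0.76. *RpL3* was called at a smaller difference of 0.97.

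In cluster 13 the leading members were *RpS29*, with 1809 against 518 CPM in the larger matrix and 1202 against 451 in the smaller (1.95 ± 0.16 on the log2 scale), *RpLP1* (1.88 ± 0.18) and *RpS14b* (1.86 ± 0.19). In cluster 8 they were *RpS15Ab* (1.39 ± 0.37), *RpL22* (1.16 ± 0.22) and *RpL6* (1.12 ± 0.19). In cluster 1 they were *RpL22* (1.14 ± 0.20), *RpL37A* (1.03 ± 0.19), followed by *RpS15Ab*. *RpL22*, which is known in human cells for binding other RNAs as well, was thus among the most raised members in clusters 1 and 8 and was not called in cluster 4. Whether it differed between these clusters was not tested.

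Cluster 15 was less even. Its leading members were *RpS14b* (1.40 ± 0.25), *RpL38* (1.37 ± 0.21) and *RpL37A* (1.18 ± 0.21), while *RpL22* at -0.15 and *RpL3* at 0.21 were not called. *RpL37A* had 400 CPM against 432 in all other nuclei of the larger matrix and 1226 against 361 in the smaller, so its difference came from the smaller matrix. With only the nuclei of at most 0.25% mitochondrial UMIs, cluster 15 had 27 of 81 tested members higher, where 6.47% of all genes were. Cluster 13 had 80 (15.2%), cluster 1 had 77 (18.4%) and cluster 8 had 74 (17.2%). Cluster 4 had too few such nuclei in the smaller matrix to be fitted.

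In the low clusters the order of members differed again. The heart cluster was led by *RpL4* (a fall by 0.87 ± 0.21 on the log2 scale), *RpLP1* (0.81 ± 0.25) and *RpS21* (0.80 ± 0.22). *RpL23A*, *RpL37A* and *RpS16* led in cluster 9, and *RpL6*, *RpS15* and *RpL23A* in cluster 30, where *RpL6* had 392 CPM against 898 in the larger matrix and 196 against 617 in the smaller. In cluster 35 *RpL38* had 87.5 against 285 and 60.04 against 204 CPM, a fall by 1.63 ± 0.36. With at most 0.25% mitochondrial UMIs, 44 members were lower in the heart cluster (6.78% of all genes), 23 in cluster 9 (13.4%) and 14 in cluster 30 (6.93%).

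Other genes of translation were read in the same fits, from fixed lists. Of all genes, 21% were higher and 16.1% lower in cluster 4, and 19.8% and 17.6% in cluster 13. The gene *sta*, which encodes the small subunit protein SA, and the ribosome-bound *Rack1* were higher in clusters 4 and 13. The ubiquitin-like *Nedd8*, on the same list, was higher in both too. In cluster 4 the log2 differences of *sta*, *Rack1* and *Nedd8* were 1.57, 1.51 and 1.06. Of 7 elongation factor genes, 5 were higher and 0 lower in cluster 4 (median 1.13) and in cluster 13 (median 1.08). *eEF5*, whose product helps the ribosome through proline stretches, had 1849 CPM in cluster 4 against 488 in the larger matrix and 1737 against 389 in the smaller (2.27 ± 0.18). *eEF1alpha1*, which delivers aminoacyl-tRNA, had 3830 against 1520 and 4344 against 1535 (1.60 ± 0.14). Of 25 initiation factor genes tested, 18 were higher and 3 lower in cluster 4 (median 1.07), led by the eIF3 subunit genes *eIF3h* (2.01 ± 0.27) and *eIF3g1* (1.97 ± 0.24). In cluster 13, 13 were higher and 1 was lower. All-gene medians in these clusters were -0.07 and -0.10.

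Genes that make ribosomes are a further list. Of 15 biogenesis genes tested, 1 was higher in cluster 4 (background 21%) and 3 in cluster 13 (19.8%), with medians of 0.24 and 0.29, and *Non1*, a GTPase gene of large subunit assembly, was among them in both. In fat body-like nuclei 8 of 18 were higher and 0 lower (median 0.78), where 22.1% and 21.3% of all genes were, among them *Fib*, which encodes the rRNA methyltransferase fibrillarin, with 114 against 36.0 CPM in the larger matrix and 19.8 against 16.1 in the smaller, and *Nop60B*, the pseudouridine synthase gene, with 763 against 241 and 133 against 92.4. Ribosomal proteins of the mitochondrial ribosome are a separate set of genes. Of 22 tested, 6 were higher and 0 lower in heart-like nuclei (median 0.52, background 15.1% and 4.42%), led by *mRpL37* (2.66 ± 0.26), while 3 of 12 were higher in cluster 4 (background 21%). *mRpL37* was also higher in muscle-like nuclei (3.28 ± 0.23), the only gene of this list called there (background 7.41%). *mRpL20*, among the 6 of the heart, had 21.2 against 10.5 CPM in the larger matrix but 6.88 against 10.3 in the smaller.

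Regulators of ribosomal protein genes went in both directions. In cluster 4, 0 of 8 tested were higher (background 21%) and 3 lower (16.1%): *Xrp1*, a transcription factor gene induced when ribosomal protein dosage falls (a fall by 1.26 ± 0.23 on the log2 scale), *Myc*, a driver of ribosome production (0.91 ± 0.25), and *S6k*, the kinase that acts on RpS6 (0.83 ± 0.20). In cluster 13 *S6k* and *Xrp1* were lower and *Thor*, which encodes the eIF4E-binding protein, was higher. Cluster 8 had *S6k* and *Xrp1* lower, and cluster 15 had 4 lower (background 10.3%), *S6k* among them. In cluster 1 *S6k* was higher instead (background 18.6%), and 4 were lower (14.7%). Fat body-like nuclei had 5 of 8 higher (background 22.1%) and 0 lower (21.3%), led by *S6k* (1.58 ± 0.12). *Thor*, among the 5, had 1257 against 667 CPM in the larger matrix but 581 against 597 in the smaller. In cluster 9, 4 were higher, where 14.8% of all genes were, and 0 lower, *Xrp1* (1.16 ± 0.17), the ATF4 gene *crc* (0.91 ± 0.20), *Myc* (0.79 ± 0.19) and *Thor* (0.63 ± 0.23), and cluster 30 also had 4 higher (background 13.9%). In nephrocyte-like nuclei *Xrp1* had 5046 CPM against 1118 in the larger matrix and 2323 against 1609 in the smaller (1.21 ± 0.21, adjusted p = 0.00065, edgeR), *Trf2* was higher (0.67 ± 0.14) and *S6k* lower (a fall by 0.64 ± 0.18). In the fit across clusters, *Xrp1* and *Trf2* were again higher in the same nuclei, cluster 34 (background 5.68%). There 0 of the 8 were called lower (background 1.08%), so the *S6k* call depended on the groups compared.

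Gene pairs divided their family's UMIs unequally. Over all nuclei *RpL34a* had 20.5% (19.9 to 21.0) of the UMIs of its pair with *RpL34b*, and *RpS14b* 19.9% (19.3 to 20.6) of its pair with *RpS14a*. *RpL24-like* had 10.7%, *RpLP0-like* 5.39%, *RpS15Ab* 4.33%, *RpS5b* 1.66% and *RpL22-like* 1.25%. Reads of near-identical copies can be split or lost by the counting, so these shares are uncertain where the copies are most alike, as for *RpS14a* and *RpS14b*.

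The shares of the common pairs were then compared between classes, as a description. *RpL34a* lay between 12.7% (7.29 to 20.1) in nephrocyte-like and 25.1% (21.2 to 29.3) in heart-like nuclei. The nephrocyte-like value was low in both matrices, at 11.1% (3 of 27 UMIs) and 13.2% (12 of 91), and the interval of each held the share over all nuclei, while the upper limit of both together lay just below it. *RpS14b* lay between 13.98% in nephrocyte-like and 23.9% in oenocyte-like nuclei, and *RpL24-like* between 9.58% and 12.2%. *RpLP0-like* reached 9.23% (7.46 to 11.3) of its family in fat body-like nuclei, with 10.6% in the larger matrix and 5.24% in the smaller. *RpS14b* also had a larger share in the smaller matrix over all nuclei, 22.6% (21.6 to 23.7) against 18.0% (17.1 to 18.8).

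Several rare copies were counted in the 87 spermatocyte-like nuclei of the smaller matrix, which raised 14 of 16 spermatocyte markers. *RpL37-2* had 30 of 431 UMIs of its family there, a share of 6.96% (4.75 to 9.79) and a level of 34.8 CPM (23.5 to 49.7), where the larger matrix had 0 among 13929 UMIs of *RpL37-1*. The share depended on the clustering, with 2.42% at a resolution of 1 (660 nuclei in the class) and 30% with ribosomal protein genes kept (16 nuclei). *RpS19b* had 21 of 318 UMIs (6.604%, 4.13 to 9.92) and *RpS10a* 21 of 497 (4.23%, 2.63 to 6.39). *RpL22-like* had 8 of 64 UMIs, or 12.5% (5.55 to 23.2), *RpS5b* 14 of 278 (5.04%) and *RpL10Aa* 8 of 529 (1.51%). In all 6 families the common copy still held most of the UMIs. The counts come from few nuclei: 30 UMIs of *RpL37-2* lay in 14 nuclei, and without the nucleus with the most, *RpS10a* went from 24.4 to 15.5 CPM. The class was present in 1 matrix, so no test was made.

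The accessory gland-like cluster 6 of the smaller matrix also held these copies, *RpL37-2* with 23 UMIs at 15.2 CPM (9.62 to 22.8), *RpL10Aa* with 19 at 12.5 CPM, *RpS10a* with 16 at 10.6 CPM and *RpL22-like* with 13 at 8.57 CPM. For *RpL10Aa* this lay above the 9.29 CPM of the spermatocyte-like nuclei, with overlapping intervals (7.54 to 19.6 and 4.01 to 18.3). Spermatocyte markers were counted there too, with 4 of 16 raised. The dynein gene *kl-3* had 191 CPM in cluster 6 and 1588 CPM in the spermatocyte-like nuclei, *sa* 6.59 and 30.2, and *can* 1.98 and 20.9. The part of transcripts from other nuclei in these levels was not tested. In oenocyte-like nuclei of the same matrix *RpL37-2* was at 3.71 CPM, beside 84.9 CPM of *kl-3*.

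**Figure D5:**
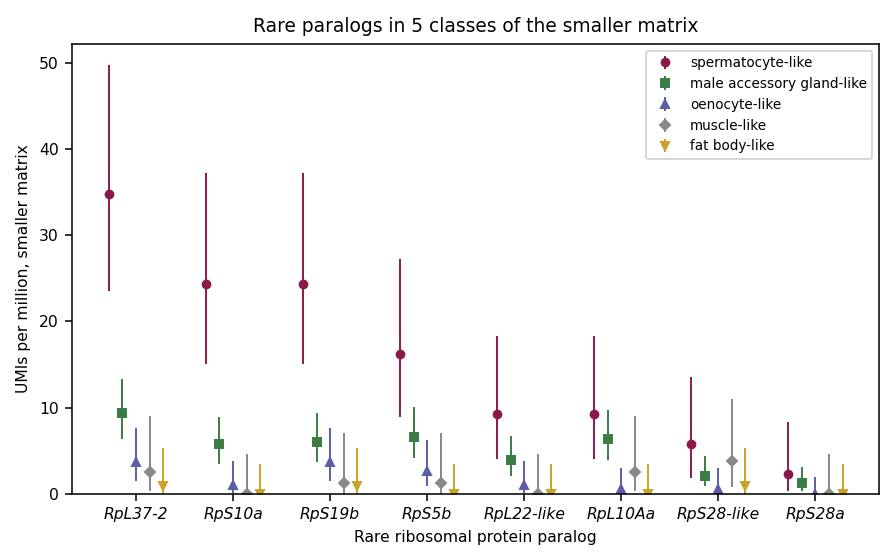
Level (CPM) of the rare ribosomal protein copies in groups of nuclei of the smaller matrix, with exact 95% Poisson intervals of counting error. *RpL37-2* stood at 34.8 CPM in spermatocyte-like nuclei and 3.71 CPM in oenocyte-like nuclei.

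Cluster 32, led by *CG34203* and *DIP-zeta* and without a class, raised 4 of 7 Malpighian tubule stellate, 4 of 8 female germline, 3 of 8 glia and 3 of 11 heart markers. *RpS5b*, known as the ovarian copy of *RpS5a*, had 18 UMIs in 76 nuclei of the larger matrix (141 CPM, against 6.06 in all other nuclei) and 5 in 60 nuclei of the smaller (33.5 CPM, against 4.004). The fitted difference was 4.84 ± 0.61 on the log2 scale (adjusted p = 2.8e-07, edgeR, background 9.64%). Of the 18 UMIs, 15 lay in 1 nucleus, and without it the level in the larger matrix was 24.8 CPM (5.11 to 72.4). When the nucleus with the most was removed from both matrices, the gene no longer passed the filter on low counts. In the smaller matrix *RpL22-like* had 6 of 12 UMIs of its family there, all others being *RpL22*, and 0 of 6 in the larger. Its 6 UMIs were 40.2 CPM (14.8 to 87.6), above its 9.29 CPM in the spermatocyte-like nuclei with overlapping intervals, and *osk* had 0 UMIs in these 60 nuclei.

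Within a class the larger matrix mostly had the higher ribosomal protein share. It was higher beyond counting error in 7 of 9 classes and lower in 0, and the interval of the ratio held 1 in Malpighian tubule principal-like nuclei (1.01, 0.98 to 1.03) and neuron-like nuclei (0.99, 0.97 to 1.01). The ratio was 2.05 (2.02 to 2.08) in fat body-like, 1.54 in enterocyte-like, 1.42 in hemocyte-like, 1.27 in oenocyte-like, 1.21 in muscle-like, 1.102 in nephrocyte-like and 1.09 in heart-like nuclei. As clusters 0 and 2 differ in their leading genes, the fat body ratio compares clusters as well as matrices. Of 25 clusters with at least 30 nuclei in each matrix, 16 were higher in the larger matrix, 5 were lower and 4 held 1. These ratios are of summed UMIs, to which deep nuclei add most. As a mean over nuclei the ratio was 0.98 in heart-like, 0.87 in Malpighian tubule principal-like and 0.94 in neuron-like nuclei, and above 1 in the other classes. For cluster 36, among the 5 lower at 0.91, it was 1.30, and the rest of the 5 stayed below 1. With 1 matrix each, these ratios compare 2 tables and not conditions.

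Gene structure was read for all 91 members from the reference annotation. Exactly 6 members have only transcripts of 1 exon, *RpL10Aa*, *RpL37-2*, *RpLP2*, *RpS10a*, *RpS15Ab* and *RpS28a*, and 4 of them are among the rare copies. Exons of 9 members overlap those of another gene on the same strand, and their counts are uncertain. They include *RpL22*, which overlaps *lncRNA:CR42491*, *RpL23A*, which overlaps *Uhg7* and a small nucleolar RNA gene, and *RpL3*, which overlaps a small nucleolar RNA gene. *RpS27A* overlaps *Ip259*, and *RpS28-like* overlaps *CG3769*.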

How the data were processed

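The authors ran the Cell Ranger count pipeline, and the 2 matrices they deposited hold unnormalized UMI counts for each gene in each barcode. Cell Ranger version and genome build: not given in the sources used here. FastQC and Seurat are also named in the submitters' processing notes. Symbols were looked up by FlyBase number, and 68 of 15423 genes had none. The larger matrix held 19107558 and the smaller 18130609 UMIs in all.

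The members and lists were chosen with earlier results of these data known. Nuclei with at least 200 genes (13867) were clustered without ribosomal protein genes on 2000 variable genes, 30 principal components, 15 neighbors and a Leiden resolution of 2 (Python 3.11.15, scanpy 1.11.5, leidenalg 0.10.2). No doublet caller was run and no doublets were removed. A cluster was called X-like where at least 60% of a marker list, and at least 3 markers, reached 3 times the level of all other nuclei. The 60% was set after the clusters were seen and kept clusters 7, 11, 12, 31, 32 and 36 without a name, with 289, 214, 469, 135, 76 and 34 nuclei of the larger and 258, 257, 2, 5, 60 and 61 of the smaller matrix.

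UMIs were summed per class and matrix and tested with edgeR 4.0.16 in R 4.3.3 (TMM, filterByExpr, quasi-likelihood fit, the matrix as a block, Benjamini-Hochberg adjustment, threshold 0.05). The block pairs sums of a matrix, which come from the same preparation. The standard error is the log2 difference over the square root of F. All-other-nuclei levels pool UMIs, whereas the fit compares with the mean of the other groups. Classes needed 30 nuclei in each matrix. The fit across clusters was added after the class fit was seen. Alternatives were DESeq2 1.42.0, other scalings, filters, nuclei and clusterings. The test was checked on simulated counts with 200 genes changed in the nephrocyte-like class. These counts had 1 preset spread and the same composition in every group, and only well-counted genes were changed. The real groups differ in composition, so the results below hold for that setting and not for these data. The test recovered 103 of the changed genes and made 5 false calls. Of 50 genes each, 19 were recovered at a fold of 2, 47 at 4, 10 at 0.5 and 27 at 0.25. Most changes by a fold of 2 or 0.5 were thus missed, and a member not called in that class can still differ.

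Genes named are the paralog families, the 5 highest and 5 lowest members, up to 3 called members in each direction per group, up to 4 called genes per list and, for *RpL22-like* and *RpS5b*, the 3 genes with the nearest pattern. *RpL3*, *RpL22* and *RpS5b* where not called, and others outside this rule, were chosen after their values were seen. No sequences are shown, since none were given with the reference used here.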

Additional observations from a re-analysis of the deposited data

Results flagged for a closer look

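The ribosomal protein share of cluster 15, led by *CG13285* and *CG2663*, was 4.61% in the larger matrix (88 nuclei) and 9.18% in the smaller (321 nuclei). It thus lay below the level of all nuclei in the larger matrix (4.83%) and above it in the smaller (3.70%). Its mitochondrial share differed too, with 0.317% and 1.01%, and its median depth was 628 and 751 UMIs. The part of cytoplasmic RNA in the difference was not tested.

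The Malpighian tubule principal-like cluster 29 had 3.81% in the larger matrix and 3.78% in the smaller, and so lay below the level of all nuclei in one and above it in the other. Its own values differed by less than counting error, since the interval of their ratio was 0.98 to 1.03. For both clusters the difference between the matrices has 1 sample behind each side and was not tested.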

How the results depend on the processing

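Over the classes, 3 members were called higher and 10 lower. Without the replicate block (no matrix term) these were 1 and 2, against the sum of all other nuclei 0 (edgeR, 1 at an unadjusted p below 0.05) and 98, with ribosomal protein genes kept in the clustering 1 and 34, with at least 1000 UMIs per nucleus 1 and 16, and without the fat body class 1 and 25. DESeq2 gave 22 and library totals alone 90 lower calls. Across clusters, library totals alone gave 80 instead of 44 lower members in cluster 19 and 67 instead of 41 in cluster 9. Nuclei with at least 1000 UMIs gave 28 instead of 16 in cluster 35. At most 0.25% mitochondrial UMIs gave 27 instead of 77 higher members in cluster 15, and 14 instead of 30 lower in cluster 30 and 23 instead of 41 in cluster 9. The alternatives across clusters and without the fat body class or a nucleus were chosen after seeing the data. Apart from the 0.25% limit, shares of all genes called are not given for the alternatives, so these counts describe dependence on processing alone.

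The ratio of 1.96 between highest and lowest class was 2.03 with at least 1000 UMIs, 1.98 to 2.11 in each matrix alone, 1.85 as a mean over nuclei, 1.78 without the 10 most abundant other genes, 2.09 at a resolution of 1 and 2.20 with ribosomal protein genes kept in the clustering. The *RpL37-2* share of 6.96% in spermatocyte-like nuclei was 2.42% at a resolution of 1, where the class held 660 nuclei, and 30% with ribosomal protein genes kept, where it held 16. Without thinning, 36 instead of 15 members were seen per nucleus. In the smaller matrix alone, the fat body differences of *RpL3* and *RpLP0-like* turned to -0.25 and -0.012, beside 0.74 for *RpL3* in the larger alone. *RpL9* in nephrocyte-like nuclei kept its direction in 13 alternatives (0.57 to 1.14) and lost its call against the sum of all other nuclei and without the top nuclei. The causes were not tested, beyond the fewer samples or nuclei of an alternative.

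Cluster 15 could not be fitted at 1000 UMIs, nor the nephrocyte-like class, nor the fat body-like class with ribosomal protein genes kept. Depth limits the rare copies most, since the 7 lowest had under 100 UMIs each.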

Other observations

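The genes whose pattern over 20 class and matrix sums was most like that of *RpL22-like* were *CG14537*, *CG6470* and *lncRNA:CR43913*, with a Pearson r of log2(CPM + 10) of 0.99 each. *RpL22-like* had 23 UMIs in these sums, so its pattern is that of the few sums in which it was counted. For *RpS5b*, with 78 UMIs, the nearest were *CG3226* (0.81), *CG1602* (0.80) and *CG4186* (0.79).

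*RpS5b* had 26 UMIs in cluster 12 of the larger matrix, led by *CG10591* and *CG9184*, at 20.7 CPM in 469 nuclei. These UMIs lay in 15 nuclei, 11 of them in 1 nucleus, and without it the level was 12.1 CPM, with a lower limit of 6.79.

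*eEF1alpha2*, the second gene of the elongation factor that delivers aminoacyl-tRNA, was higher in neuron-like nuclei, with 65.2 CPM against 2.79 in all other nuclei of the larger matrix and 40.2 against 3.44 in the smaller (4.70 ± 0.63 on the log2 scale, adjusted p = 2.5e-05, edgeR). It was also higher in muscle-like nuclei, with 23.3 against 3.48 and 8.80 against 3.98 (2.88 ± 0.76), while no cytosolic ribosomal protein gene was called in either class.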
